A study of Homo sapiens with 9 samples.

Results

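The genes described here encode the machinery and receptors of autophagy. They were taken by symbol from the deposited expression table as a list of 40: 5 of the initiation complex, 7 of the phosphatidylinositol 3-kinase (PI3K) complexes, 5 of membrane growth, 10 of the conjugation systems, 5 ATG8 genes, 5 cargo receptors and 3 of fusion and tethering. All 40 symbols were found among the 56609 symbols of the table. Of these, 39 reached a mean of 1 TPM over all samples and were tested among 13968 such symbols, and MAP1LC3A did not. TPM expresses a transcript, corrected for its length, as a share of its library, which sums to 1000000.

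Autophagy encloses cytoplasm in a new double membrane, the autophagosome, which then fuses with lysosomes. The ULK1 kinase complex starts the process, a class III PI3K complex makes the lipid PI3P at the site of assembly, and WIPI proteins bind that lipid while ATG9 vesicles and the lipid transfer protein ATG2 supply membrane. A pair of ubiquitin-like conjugation systems then attaches ATG8 proteins (the LC3 and GABARAP proteins) to the membrane, where receptors such as SQSTM1 (p62) dock their cargo. RNA levels measure neither ATG8 lipidation nor autophagic turnover.

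RNA of MCF10A, an established, non-tumorigenic breast epithelial cell line, was sequenced in 9 samples. The 3 control samples were untreated. The 3 high calcium samples received 10 mM calcium with the calcium ionophore ionomycin (given in the labels as 1 mM) for 16 h, and the 3 TGFb3 samples received 10 nM TGFb3, transforming growth factor beta 3, for 16 h. Cells of all groups grew in DMEM/F12 medium that held insulin, EGF, cholera toxin, hydrocortisone and horse serum. This is 1 cell line. Replicates are numbered in the labels without a word on separate cultures, and a p-value therefore covers no more than the spread among these samples, whose source may be technical.

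The 8 epithelial markers checked were at 1 TPM or more in every sample. Of the 5 leukocyte markers, PTPRC and CD3E were listed at 0 in all samples, and the summed TPM of the list was 19.5 to 23.4 in the control, 53.0 to 73.9 in high calcium and 10.8 to 15.6 in TGFb3. CDH5 among 4 endothelial markers (sums of 3.81 to 4.51, 6.96 to 7.19 and 1.54 to 2.12 in the same order), COL1A2 among 5 fibroblast markers (2.60 to 3.44, 9.75 to 12.2 and 28.4 to 32.0) and both ADIPOQ and LEP among 3 adipocyte markers (at most 0.529) were also at 0 throughout. Other markers of these lists were present. CD14 (1.99 to 39.1 TPM), CD68 (1.36 to 37.3), KDR (1.42 to 6.93) and DCN (1.77 to 14.9) were at 1 TPM or more in every sample. COL1A1 was at 0.731 to 17.0 TPM, and the markers of these lists not named were under 1 TPM. In bulk RNA, a different number of cells of a type and a different amount of RNA per cell cannot be told apart. Mitochondrially encoded RNA took 22.7 ± 0.914% of TPM in the control, 11.5 ± 0.371% in high calcium and 22.7 ± 0.588% in TGFb3 (SD, n = 3). MALAT1, a nuclear RNA, was at 158 ± 44.7, 424 ± 32.2 and 204 ± 12.4 TPM in the same order, and its part in the results was not tested. Over all tested genes, the median log2 difference from the control was 0.22 in high calcium and -0.06 in TGFb3, so differences in high calcium are read against 0.22. With 3 other scalings that median in high calcium was 0.00 (median ratio rescaling), 0.05 (mitochondrial genes left out) and -0.04 (quantile normalisation).

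In high calcium, 29 of the 39 tested genes were called higher than the control, 3 were called lower and 7 were not called. A gene was called at an adjusted p under 0.05 in limma. Among all tested genes 46.1% were called higher, 17.0% lower and 63.1% in either direction. WIPI1 rose most, followed by SQSTM1, OPTN, GABARAPL1 and MAP1LC3B, while PIK3R4, ATG4C and ATG3 fell. For 33 of the 39 genes no sample of one group reached the range of the other, against 69.0% of all tested genes. The median log2 difference was 0.38 for the 39 genes and 0.22 for all tested genes. Summed over the 39 tested genes, TPM as deposited went from 1388 ± 20.0 in the control to 2136 ± 18.9 in high calcium and 1624 ± 21.8 in TGFb3 (SD, n = 3). The size of these differences depends on the scaling of the samples.

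In TGFb3, 16 of the 39 were called higher than the control, 6 lower and 17 were not called. The shares of all tested genes were 26.5% higher, 33.1% lower and 59.6% in either direction. ULK1, WIPI1, GABARAPL1 and OPTN rose most, and ATG4C, ATG3, SQSTM1, PIK3R4, ATG2B and STX17 fell. The groups did not overlap for 25 genes, against 63.8% of all tested genes, and the median log2 difference was 0.18 against -0.06. Both treatments share the 3 control samples, so the directions below are given side by side and the treatments are compared directly further on.

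Scaling of the samples changed the count in high calcium. With median ratio rescaling 19 genes were called higher and 8 lower (30.2% and 30.0% of all tested genes), with mitochondrial genes left out 22 and 7 (32.3% and 26.4%), and with quantile normalisation 17 and 7 (28.6% and 32.0%). Under all 4 scalings 16 genes were called higher: ULK1, ATG13, ATG101, ATG14, UVRAG, WIPI1, ATG10, MAP1LC3B, GABARAP, GABARAPL1, SQSTM1, NBR1, OPTN, CALCOCO2, TAX1BP1 and TECPR1. PIK3R4, ATG3 and ATG4C were called lower under all 4. In TGFb3, the same 3 scalings gave 19, 16 and 17 genes higher and 6 lower each (29.3%, 26.1% and 27.2% of all tested genes higher and 30.4%, 32.5% and 32.7% lower), and all 16 rises and 6 falls were called under each.

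**Figure D1:**
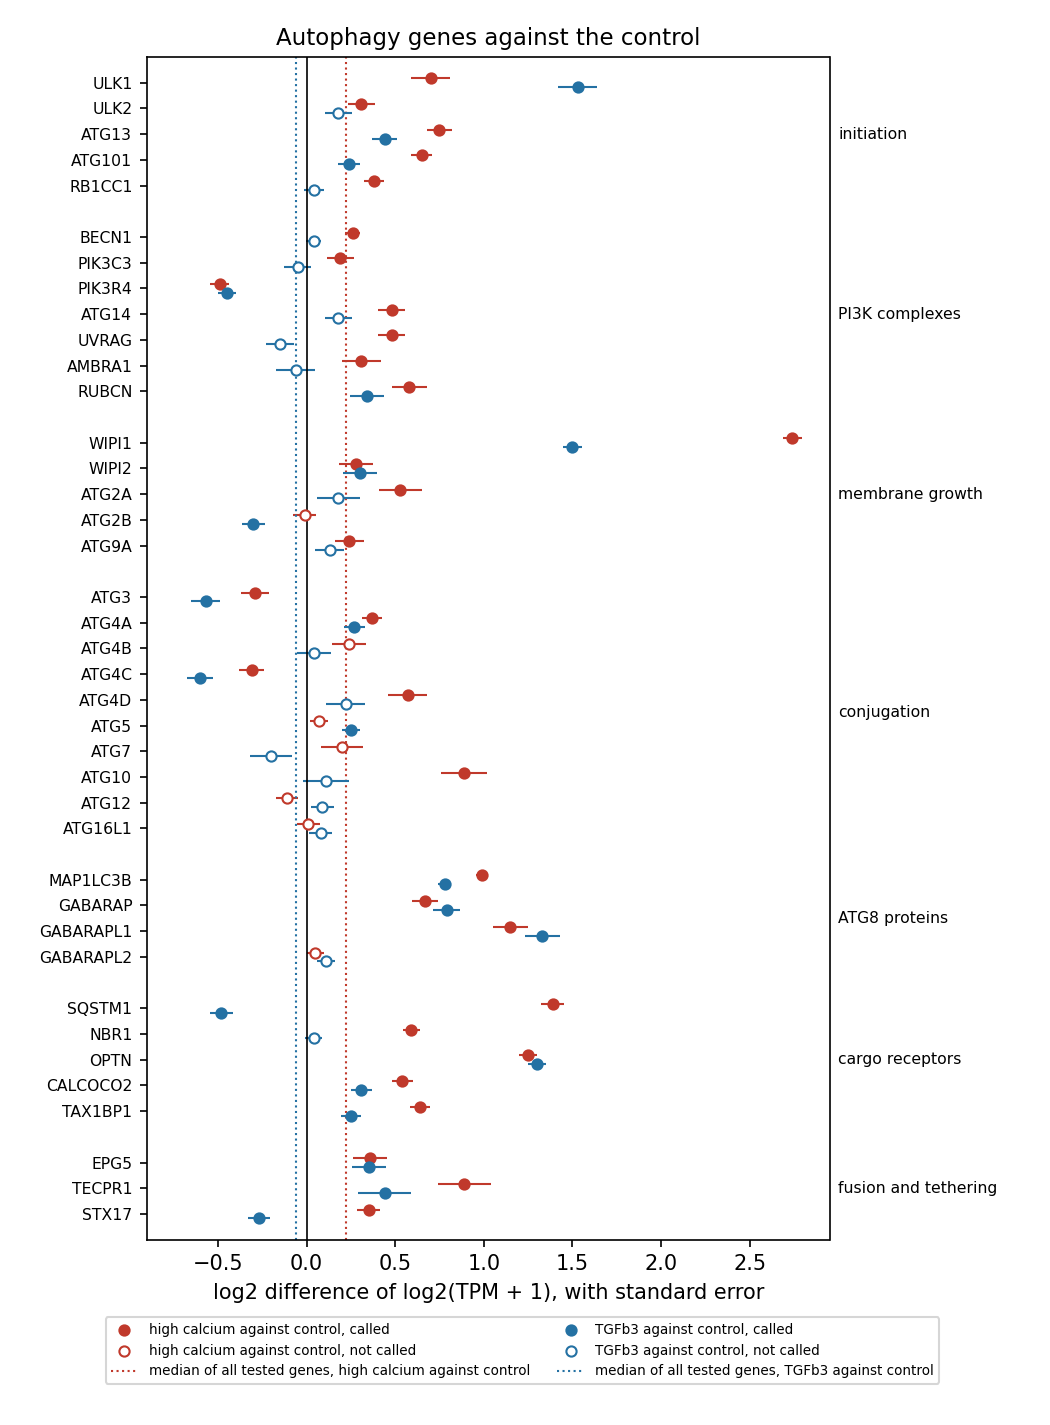
Log2 difference of log2(TPM + 1) against the control, with its standard error, for the 39 tested autophagy genes by role, in high calcium (red) and TGFb3 (blue). Filled points were called and open points were not, and dotted lines mark the medians of all tested genes (0.22 and -0.06). WIPI1 lies farthest to the right in high calcium at 2.74, and SQSTM1 and STX17 are higher in high calcium and lower in TGFb3. The rise of STX17 in high calcium was not called with median ratio rescaling or quantile normalisation.

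**Figure D2:**
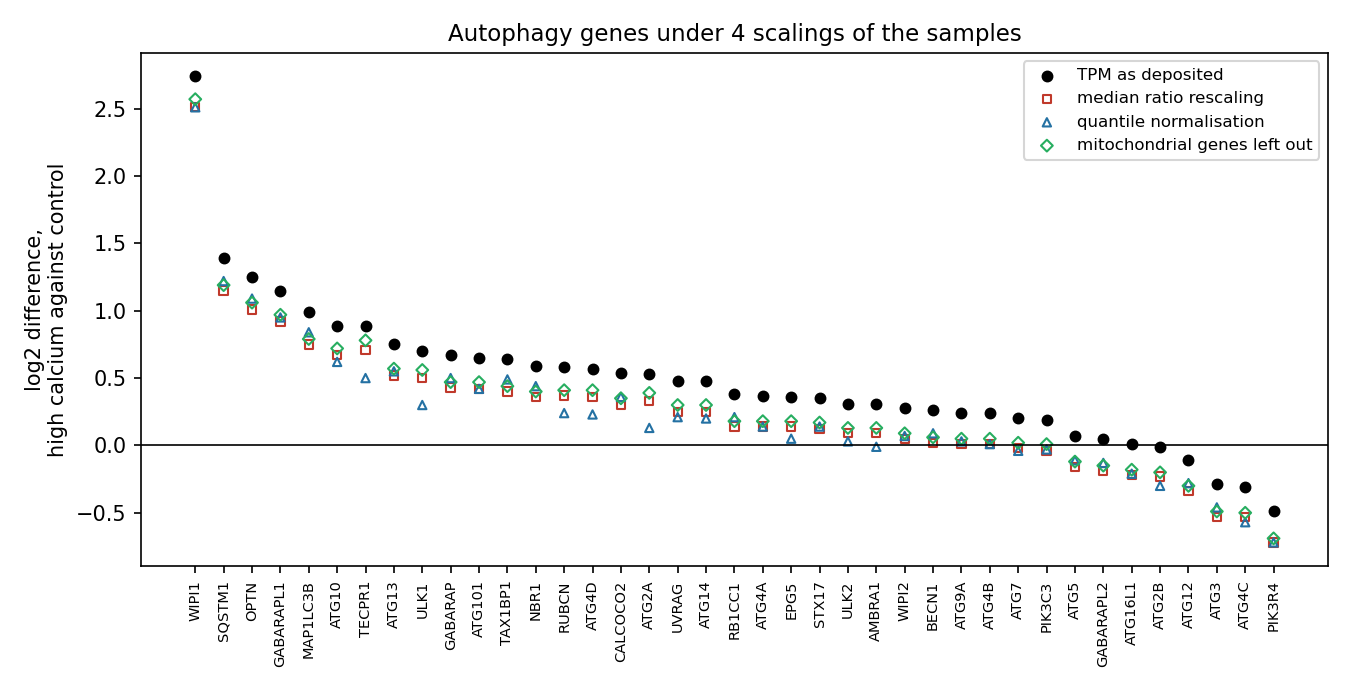
Log2 difference between high calcium and control for the 39 tested genes, ordered by the value from TPM as deposited (black), with 3 other scalings of the samples. Most coloured points lie below the black ones. The sign depends on the scaling for AMBRA1 and for the genes from ATG7 rightward to ATG16L1.

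Promoter sequence was read for every gene of the list with a start in the table, whatever its change, from the 250 bases before each start in the RefSeq promoter table (GRCh38.p14). There were 43 starts of 34 of the 40 genes. Bases before a start can lie in exons of GENCODE release 29, as given below for the stretches shown. Both strands were searched for 5 motifs. CACGTG, the E-box core of the CLEAR element that MiT/TFE factors bind, was found at 2 starts (4.65%), of ATG3 and ATG14, against 6.31% of all 34796 starts and 8.21% of the starts of tested genes. TGACGTCA, the cAMP response element, was found at 1 start, of GABARAPL1 (2.33%, against 1.64% and 2.45%). TGATGCAA, the core of a C/EBP-ATF response element, and TGANTCA, bound by AP-1, were found at 0 of 43 starts (0.776% and 0.465%, and 6.59% and 4.68%, of all starts and of starts of tested genes). CCACG, a box of the ER stress element, was found at 25 starts of 23 genes (58.1%, against 33.5% and 42.7%). On one strand or the other, it overlaps CACGTG where a C precedes or a G follows that motif. In ATG14 a C precedes it. GC content was 62.1% for these starts and 63.2% for starts of tested genes. A match is a description of letters, not of binding.

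In TPM as deposited, WIPI1 had the largest rise in high calcium and ULK1 in TGFb3. WIPI1 was close to ULK1 in TGFb3 (1.50 and 1.53), and above it with quantile normalisation (1.50 and 1.46). The windows before the starts of both genes are shown whole, 5′ to 3′ on the strand of the gene. CCACG or its reverse complement CGTGG is in capitals. The WIPI1 window lies at chr17:68457497-68457746 on the minus strand and holds CGTGG at 2 places. The ULK1 window lies at chr12:131894372-131894621 on the plus strand and holds it at 1 place. Of the 250 bases, 17 in the WIPI1 window and 0 in the ULK1 window are exon bases of any GENCODE release 29 gene.
WIPI1: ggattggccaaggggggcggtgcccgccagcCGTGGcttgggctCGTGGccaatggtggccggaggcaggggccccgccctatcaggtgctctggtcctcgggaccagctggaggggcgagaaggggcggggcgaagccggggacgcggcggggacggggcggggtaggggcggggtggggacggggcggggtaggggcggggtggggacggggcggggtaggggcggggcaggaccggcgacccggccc
ULK1: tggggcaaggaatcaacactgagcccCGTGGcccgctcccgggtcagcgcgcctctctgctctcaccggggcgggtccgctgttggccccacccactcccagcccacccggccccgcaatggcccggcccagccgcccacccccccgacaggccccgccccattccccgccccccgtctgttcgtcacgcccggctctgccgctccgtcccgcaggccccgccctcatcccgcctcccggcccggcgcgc

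Shorter stretches show the E-boxes of ATG3 (chr3:112561963-112561992, minus strand) and ATG14 (chr14:55411834-55411863, minus strand), the cAMP response element of GABARAPL1 (chr12:10212836-10212865, plus strand) and the first of 2 CCACG matches of MAP1LC3B (chr16:87392181-87392209, plus strand). Capitals mark the motif, and in ATG14 they mark CACGTG together with the CCACG that overlaps it. Most of these bases lie in exons of GENCODE release 29 genes: 30 of 30 for ATG3, 25 of 30 for ATG14, 30 of 30 for GABARAPL1 and 29 of 29 for MAP1LC3B. All 250 bases of the MAP1LC3B window are exon bases, and the window lies inside the span of that gene.
ATG3: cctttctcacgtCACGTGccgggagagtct
ATG14: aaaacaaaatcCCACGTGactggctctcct
GABARAPL1: ggctcgcggggTGACGTCAcagcccgacgc
MAP1LC3B: cctgctccgcccCCACGctgcgtgccgct

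All 5 initiation genes were called higher in high calcium and 3 of them in TGFb3, with 0 lower in either. Of all tested genes, 46.1% were called higher and 17.0% lower in high calcium, and 26.5% and 33.1% in TGFb3. ULK1, the kinase that starts autophagosome formation (GRCh38 chromosome 12, from 131894651 to 131923167), stood at 2.81, 2.84 and 3.59 TPM in control replicates 1, 2 and 3, at 6.01, 5.48 and 5.27 in high calcium and at 9.78, 11.1 and 11.3 in TGFb3. The 3 groups did not overlap, and TGFb3 was the highest. The log2 difference from the control was 0.70 ± 0.11 (SE) in high calcium (adjusted p = 0.00029, limma) and 1.53 ± 0.11 in TGFb3 (adjusted p = 1.1e-06). With quantile normalisation the value in high calcium was 0.30 (adjusted p = 0.023).

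Other genes of the complex did not follow ULK1. ATG13, the regulatory subunit, was at 26.5, 26.4 and 24.9 TPM in the control, 45.2, 48.0 and 40.4 in high calcium and 36.0, 37.1 and 33.5 in TGFb3, a log2 difference of 0.75 ± 0.069 (adjusted p = 7e-06) and 0.44 ± 0.069 (adjusted p = 0.00033). ATG101, which stabilises ATG13, was at 15.4, 14.7 and 14.3 TPM, then 24.7, 23.6 and 23.1, then 18.3, 16.8 and 18.0. Its log2 differences were 0.65 ± 0.060 (adjusted p = 7.7e-06) and 0.24 ± 0.060 (adjusted p = 0.0057). For both genes every treated sample was above every control sample. High calcium was also above TGFb3, by log2 0.32 for ATG13 (adjusted p = 0.0025) and 0.41 for ATG101 (adjusted p = 0.0002), but that call was lost under the 3 other scalings for ATG13 (0.03 to 0.12) and under median ratio rescaling (0.13) and quantile normalisation (0.15) for ATG101. RB1CC1 (FIP200), the scaffold of the complex, rose by log2 0.38 in high calcium (42.3 to 45.1 TPM in the control and 56.8 to 57.1 in high calcium), and its value in TGFb3 was 0.04 (adjusted p = 0.55). ULK2, a second kinase of the complex, rose by 0.31 in high calcium. That call was lost under each of the 3 other scalings (0.03 to 0.13), as was that of RB1CC1 under median ratio rescaling (0.14, adjusted p = 0.053). In TGFb3 ULK2 was at 0.18 (adjusted p = 0.065) and was called higher with median ratio rescaling (0.22, adjusted p = 0.025).

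The PI3K complexes were mixed. In high calcium 6 of 7 were called higher and 1 lower, where 46.1% and 17.0% of all tested genes were. In TGFb3 1 was higher, 1 lower and 5 were not called, where 26.5% of all tested genes were higher and 33.1% lower. PIK3R4 (VPS15), the regulatory subunit that every form of the complex holds, fell in both treatments. It was at 28.0, 29.1 and 30.5 TPM in the control, 20.0, 20.8 and 20.4 in high calcium and 20.7, 21.4 and 21.2 in TGFb3. The log2 differences were -0.49 ± 0.052 (adjusted p = 2e-05) and -0.45 ± 0.052 (adjusted p = 4e-05). In TPM as deposited the treated groups overlapped each other, and both lay wholly below the control. PIK3C3 (VPS34), the catalytic subunit, was called higher in high calcium at 0.19 (adjusted p = 0.049), but not when any of 8 of the 9 samples was left out (all but high calcium replicate 2; adjusted p 0.060 to 0.19), and it was at -0.04 with median ratio rescaling and -0.03 with quantile normalisation.

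ATG14, which directs the complex to autophagosome formation, and UVRAG, which replaces it in the endosomal complex, each rose by log2 0.48 in high calcium. The control samples of ATG14 lay between 10.1 and 11.1 TPM and its high calcium samples between 14.5 and 15.6. For UVRAG these ranges were 9.92 to 11.7 and 15.2 to 15.5 TPM. In TGFb3 their log2 differences were 0.18 (adjusted p = 0.070) and -0.15 (adjusted p = 0.13). ATG14 was called higher in TGFb3 with median ratio rescaling (0.22, adjusted p = 0.023) and without TGFb3 replicate 1 (0.24, adjusted p = 0.025). RUBCN (Rubicon), an inhibitor of the UVRAG complex, was at 6.31, 6.21 and 6.32 TPM in the control, 8.98, 11.6 and 9.25 in high calcium and 8.20, 8.42 and 8.09 in TGFb3. Every treated sample was above every control sample, by log2 0.58 ± 0.097 in high calcium (adjusted p = 0.00048) and 0.34 ± 0.097 in TGFb3 (adjusted p = 0.011). With quantile normalisation the value in high calcium was 0.24 (adjusted p = 0.056). BECN1 (Beclin 1), the scaffold, rose by 0.26 in high calcium and its regulator AMBRA1 by 0.31. Neither was called under any of the 3 other scalings (0.02 to 0.09 for BECN1 and -0.01 to 0.13 for AMBRA1), and the AMBRA1 call was also lost without control replicate 1 or 2 or high calcium replicate 2 or 3 (adjusted p 0.085 to 0.12). BECN1 shares 300 exon bases with PSME3 on the opposite strand, which was at 125 to 268 TPM.

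WIPI1, the PI3P-binding protein of the growing membrane, changed most of all 39 genes in high calcium. It was at 11.1, 10.7 and 11.4 TPM in the control, 76.9, 81.7 and 80.3 in high calcium and 34.3, 33.7 and 31.3 in TGFb3. The 3 groups stood far apart, with replicates of a group within 5 TPM of each other. The log2 differences were 2.74 ± 0.053 in high calcium (6.68-fold on TPM + 1, adjusted p = 3.9e-10) and 1.50 ± 0.053 in TGFb3 (2.83-fold, adjusted p = 1.3e-08). Relative to the median of all tested genes they were 2.52 and 1.56. WIPI1 (chromosome 17, 68420948 to 68457513) shares 828 of its 3402 exon bases with ARSG on the opposite strand, which was at 1.02 to 6.94 TPM over the 9 samples.

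The other genes of membrane growth had smaller differences than WIPI1. WIPI2, which recruits ATG16L1, was called higher in both treatments, by log2 0.28 in high calcium and 0.30 in TGFb3. In high calcium that call was lost under the 3 other scalings (0.05 to 0.09) and without control replicate 1 or high calcium replicate 2 or 3 (adjusted p 0.066 to 0.087), and in TGFb3 without control replicate 1 or TGFb3 replicate 1 (adjusted p 0.069 to 0.074). ATG2A, a lipid transfer protein, was at 3.04, 2.81 and 3.38 TPM in the control, 5.47, 4.52 and 4.66 in high calcium and 4.23, 3.19 and 3.45 in TGFb3. It rose in high calcium by 0.53 ± 0.12 (adjusted p = 0.004; 0.13 and adjusted p = 0.34 with quantile normalisation) and overlapped the control in TGFb3 (0.18, adjusted p = 0.25). Its paralogue ATG2B had a log2 difference of -0.01 in high calcium (adjusted p = 0.88) and fell by 0.30 in TGFb3 (adjusted p = 0.003), with 11.6 to 12.4 TPM in the control samples and 9.25 to 9.80 in TGFb3. Under the 3 other scalings ATG2B was called lower in high calcium as well (-0.30 to -0.20, adjusted p 0.0017 to 0.031). ATG9A, the scramblase of the vesicles that seed the membrane, was called at 0.24 in high calcium although its samples overlapped the control. That call was lost under the 3 other scalings (0.01 to 0.05) and without control replicate 1 or 2 or high calcium replicate 1 or 2 (adjusted p 0.068 to 0.10).

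**Figure D3:**
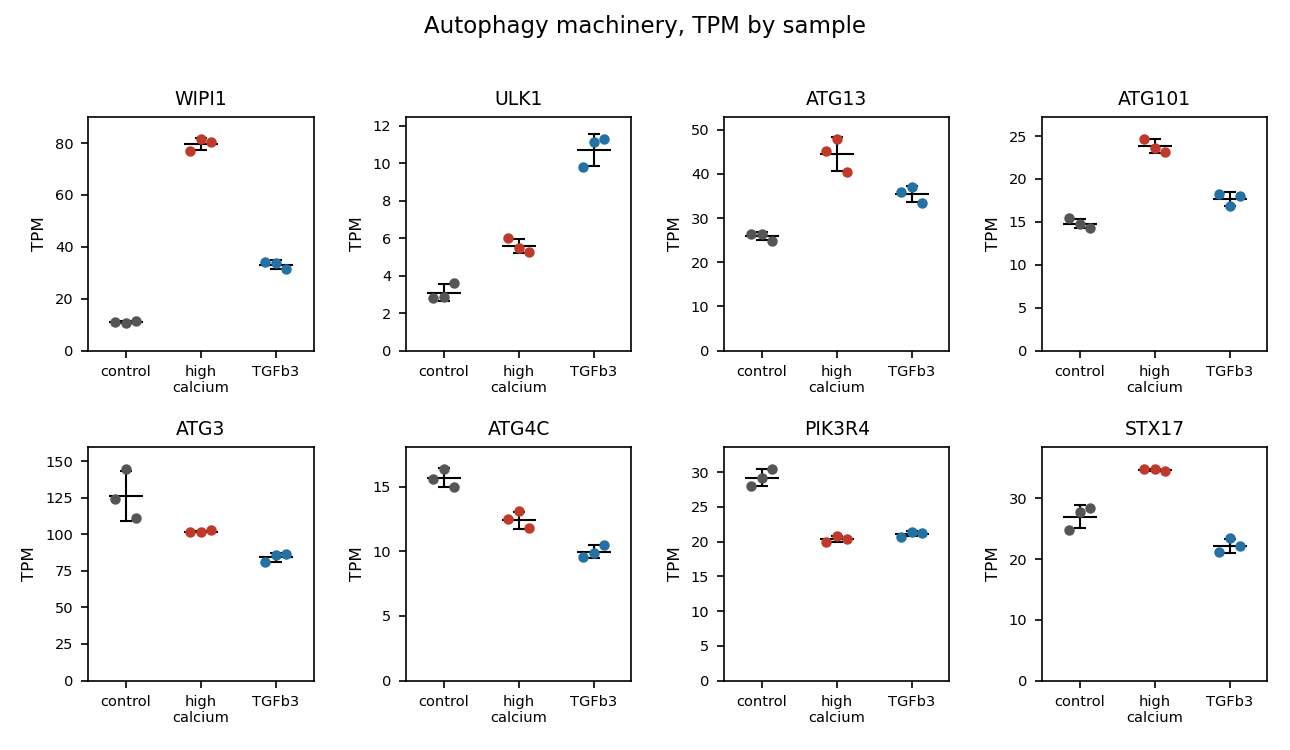
TPM of 8 genes of initiation, membrane growth, conjugation, the PI3K complexes and fusion in each sample (points), with the mean and SD of each group of 3 (lines), on linear axes from 0. In TPM as deposited WIPI1, ATG13 and ATG101 are highest in high calcium and ULK1 in TGFb3 (for ATG13 and ATG101 the difference between the treatments depends on the scaling). ATG3, ATG4C and PIK3R4 are lower in both treatments. STX17 is above the control in high calcium (not called with median ratio rescaling or quantile normalisation) and below it in TGFb3.

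Of the 10 conjugation genes, 3 were called higher and 2 lower in high calcium, and 2 higher and 2 lower in TGFb3. The shares of all tested genes were 46.1% and 17.0% in high calcium and 26.5% and 33.1% in TGFb3. In high calcium the median log2 difference was 0.14 for the 10 genes and 0.22 for all tested genes. The conjugation genes that fell were the E2-like enzyme that attaches lipid to ATG8 proteins and a protease that processes them. ATG3, the E2-like enzyme, was at 124, 145 and 111 TPM in the control, 102, 102 and 103 in high calcium and 80.9, 85.7 and 86.6 in TGFb3. It fell by log2 0.29 ± 0.080 in high calcium (adjusted p = 0.0091) and by 0.57 ± 0.080 in TGFb3 (adjusted p = 0.00016). Control replicate 2 was the highest sample, and without it the fall in high calcium was -0.19 (adjusted p = 0.018). ATG4C, a protease of the ATG4 family, was at 15.6, 16.4 and 15.0 TPM, then 12.5, 13.1 and 11.8, then 9.54, 9.90 and 10.5. It fell by 0.31 ± 0.072 in high calcium (adjusted p = 0.0035) and by 0.60 ± 0.072 in TGFb3 (adjusted p = 4.8e-05), and no groups overlapped.

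The other ATG4 proteases did not follow ATG4C. ATG4D was at 5.69, 5.77 and 6.41 TPM in the control, 9.29, 10.2 and 8.59 in high calcium and 7.91, 7.54 and 5.96 in TGFb3. It rose in high calcium by 0.57 ± 0.11 (adjusted p = 0.0013), and was at 0.23 with quantile normalisation (adjusted p = 0.081). Its TGFb3 samples overlapped the control (0.22, adjusted p = 0.12), and without TGFb3 replicate 3 it was called higher in TGFb3 (0.33, adjusted p = 0.022). ATG4A rose by 0.37 in high calcium (0.14 to 0.18 under the other scalings, called with mitochondrial genes left out) and by 0.27 in TGFb3. ATG4B, the family's main processor of ATG8 proteins, was at 0.24 in high calcium (adjusted p = 0.054) and 0.04 in TGFb3 (adjusted p = 0.72). In high calcium it was called with a minimum mean of 5 TPM (adjusted p = 0.048) and with a replicate block (adjusted p = 0.045). It was also called there without TGFb3 replicate 1, control replicate 3 or high calcium replicate 2 (adjusted p 0.021 to 0.046). Under the 3 other scalings it was at 0.01 to 0.05 and not called.

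ATG10, the E2-like enzyme that joins ATG12 to ATG5, was at 10.6, 9.36 and 7.58 TPM in the control, 16.4, 16.6 and 20.4 in high calcium and 10.8, 8.81 and 10.1 in TGFb3. It rose in high calcium by 0.89 ± 0.13 (adjusted p = 0.00017) and not detectably in TGFb3 (0.11 ± 0.13, adjusted p = 0.49). ATG10 shares 374 of 5449 exon bases with the ribosomal protein gene RPS23 on the opposite strand, which was at 747 to 1510 TPM, and no source used here gives whether the counting used strand. The partners of ATG10 had smaller differences: ATG12 had log2 differences of -0.11 and 0.09, ATG16L1 of 0.01 and 0.08 and ATG5 of 0.07 and 0.25, in high calcium and TGFb3, and of these the rise of ATG5 in TGFb3 was called (adjusted p = 0.0021). Under the 3 other scalings ATG12 (-0.34 to -0.28, adjusted p 0.0017 to 0.0036) and ATG16L1 (-0.22 to -0.18, adjusted p 0.019 to 0.036) were called lower in high calcium, and ATG5 was with median ratio rescaling (-0.16, adjusted p = 0.016). In TGFb3 ATG12 was called higher without TGFb3 replicate 1 (0.15, adjusted p = 0.044). ATG7, the E1-like enzyme of both systems, was at 0.20 in high calcium (adjusted p = 0.19) and -0.20 in TGFb3 (adjusted p = 0.20). It shares 1596 exon bases with VGLL4 on the opposite strand.

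Of the 5 ATG8 genes, 4 were tested. MAP1LC3B, GABARAP and GABARAPL1 rose in both treatments and GABARAPL2 was called in neither. MAP1LC3B (LC3B, on chromosome 16 from 87383995 to 87404779) had 76.9, 78.2 and 76.0 TPM in the control, 152, 157 and 152 in high calcium and 132, 136 and 130.0 in TGFb3. Its log2 difference was 0.99 ± 0.036 in high calcium (adjusted p = 1.2e-08) and 0.78 ± 0.036 in TGFb3 (adjusted p = 6.6e-08). GABARAPL1 (on chromosome 12 from 10212458 to 10223130), a close relative of GABARAP, was at 19.6, 20.2 and 18.4 TPM, then 41.8, 43.6 and 47.6, then 51.4, 58.2 and 42.3. It had the largest rise of the family, 1.15 ± 0.10 (adjusted p = 5.5e-06) and 1.33 ± 0.10 (adjusted p = 2e-06), from the lowest level of the 4 tested genes.

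GABARAP was at 63.1, 63.6 and 64.6 TPM in the control, 94.8, 111 and 101 in high calcium and 118, 117 and 98.9 in TGFb3, differences of 0.67 ± 0.074 (adjusted p = 2.9e-05) and 0.79 ± 0.074 (adjusted p = 8.6e-06). GABARAPL2 (GATE-16) was at 86.0, 85.1 and 85.1 TPM, then 88.2, 89.4 and 87.3, then 85.7, 93.2 and 98.4. Its differences were 0.05 ± 0.049 (adjusted p = 0.42) and 0.11 ± 0.049 (adjusted p = 0.079), and in high calcium it was called lower under the other scalings (-0.19, -0.15 and -0.13). In TGFb3 it was called higher with median ratio rescaling (0.16, adjusted p = 0.022), with quantile normalisation (0.15, adjusted p = 0.018) and without TGFb3 replicate 1 (adjusted p = 0.0072). MAP1LC3A was listed at 0 in all control and TGFb3 samples and at 0.302, 0.125 and 0 TPM in high calcium. MAP1LC3BP1, a pseudogene copy of MAP1LC3B, was listed at 0 in all samples.

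By level, the order in the control was GABARAPL2, MAP1LC3B, GABARAP, GABARAPL1 and MAP1LC3A, and the samples of neighbours did not overlap. In both treatments MAP1LC3B was the most abundant. Summed TPM of the 5 genes was 246 ± 1.53 in the control, 389 ± 12.0 in high calcium and 387 ± 17.7 in TGFb3 (SD, n = 3). This sum is in TPM as deposited, and differences in it between groups depend on the scaling of the samples. GABARAPL2 supplied 34.8 ± 0.265% of that sum in the control, 22.7 ± 0.586% in high calcium and 23.9 ± 2.38% in TGFb3. The share of MAP1LC3B was 31.3 ± 0.252%, 39.5 ± 0.577% and 34.3 ± 0.777%, and that of GABARAPL1 was 7.90 ± 0.313%, 11.4 ± 0.757% and 13.0 ± 1.52%. GABARAP stayed between 25.2% and 30.4% in all samples. A share within a family does not change when a sample is rescaled by 1 factor.

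The 5 cargo receptors all rose in high calcium, and in TGFb3 3 rose, SQSTM1 fell and NBR1 was not called. Of all tested genes, 46.1% were called higher in high calcium, and 26.5% higher and 33.1% lower in TGFb3. SQSTM1, the ubiquitin-binding receptor p62 (on chromosome 5 from 179806398 to 179838078), had 141, 142 and 148 TPM in the control, 405, 369.7 and 357 in high calcium and 113, 100.1 and 96.4 in TGFb3. The groups stood apart in opposite directions from the control. The log2 difference was 1.39 ± 0.065 in high calcium (adjusted p = 6.7e-08) and -0.48 ± 0.065 in TGFb3 (adjusted p = 0.00013), and both calls held under all 4 scalings. SQSTM1 shares exon bases on the opposite strand with MRNIP (1582 of 7654, at 6.27 to 8.74 TPM) and MGAT4B (105, at 81.5 to 132 TPM).

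OPTN (optineurin, on chromosome 10 from 13099449 to 13138308), a receptor for ubiquitin-marked mitochondria and bacteria, rose in both treatments. It was at 57.6, 54.3 and 53.4 TPM in the control, 135, 129.8 and 132 in high calcium and 138, 145 and 128 in TGFb3. The treated samples overlapped each other far above the control, at 1.25 ± 0.051 and 1.30 ± 0.051 (adjusted p = 2.5e-08 for each). NBR1, which cooperates with SQSTM1, was at 93.8, 97.9 and 93.0 TPM, then 142, 147 and 142, then 92.3, 97.1 and 104. It rose in high calcium by 0.59 ± 0.048 (adjusted p = 2.9e-06), and its TGFb3 samples overlapped the control (0.04 ± 0.048, adjusted p = 0.47).

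CALCOCO2 (NDP52), a receptor for bacteria and mitochondria, was at 59.6, 56.5 and 53.0 TPM in the control, 84.1, 80.3 and 82.5 in high calcium and 74.0, 64.9 and 72.3 in TGFb3. Its paralogue TAX1BP1 was at 115, 114 and 108 TPM, then 178, 167 and 182, then 124, 138 and 141. In TPM as deposited both were highest in high calcium with TGFb3 between, and no groups overlapped. The difference between the treatments was not called under the other scalings for CALCOCO2 (-0.06 to 0.03) nor with median ratio rescaling for TAX1BP1 (0.10, adjusted p = 0.21). The log2 differences were 0.54 ± 0.060 and 0.31 ± 0.060 for CALCOCO2 (adjusted p = 2.9e-05 and 0.0012) and 0.64 ± 0.056 and 0.25 ± 0.056 for TAX1BP1 (adjusted p = 5.1e-06 and 0.003).

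The make-up of the receptor pool differed between the treatments. Summed TPM of the 5 receptors was 463 ± 6.81 in the control, 911 ± 28.3 in high calcium and 543 ± 1.73 in TGFb3 (SD, n = 3). This sum too is in TPM as deposited, and its differences between groups depend on the scaling. SQSTM1 took 31.1 ± 1.25% of it in the control, 41.4 ± 1.55% in high calcium and 19.0 ± 1.64% in TGFb3. OPTN took 11.9 ± 0.346%, 14.5 ± 0.200% and 25.2 ± 1.47%, and in TGFb3 it stood above SQSTM1 in every sample. For both genes the 3 groups did not overlap, and no test was made of the shares.

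**Figure D4:**
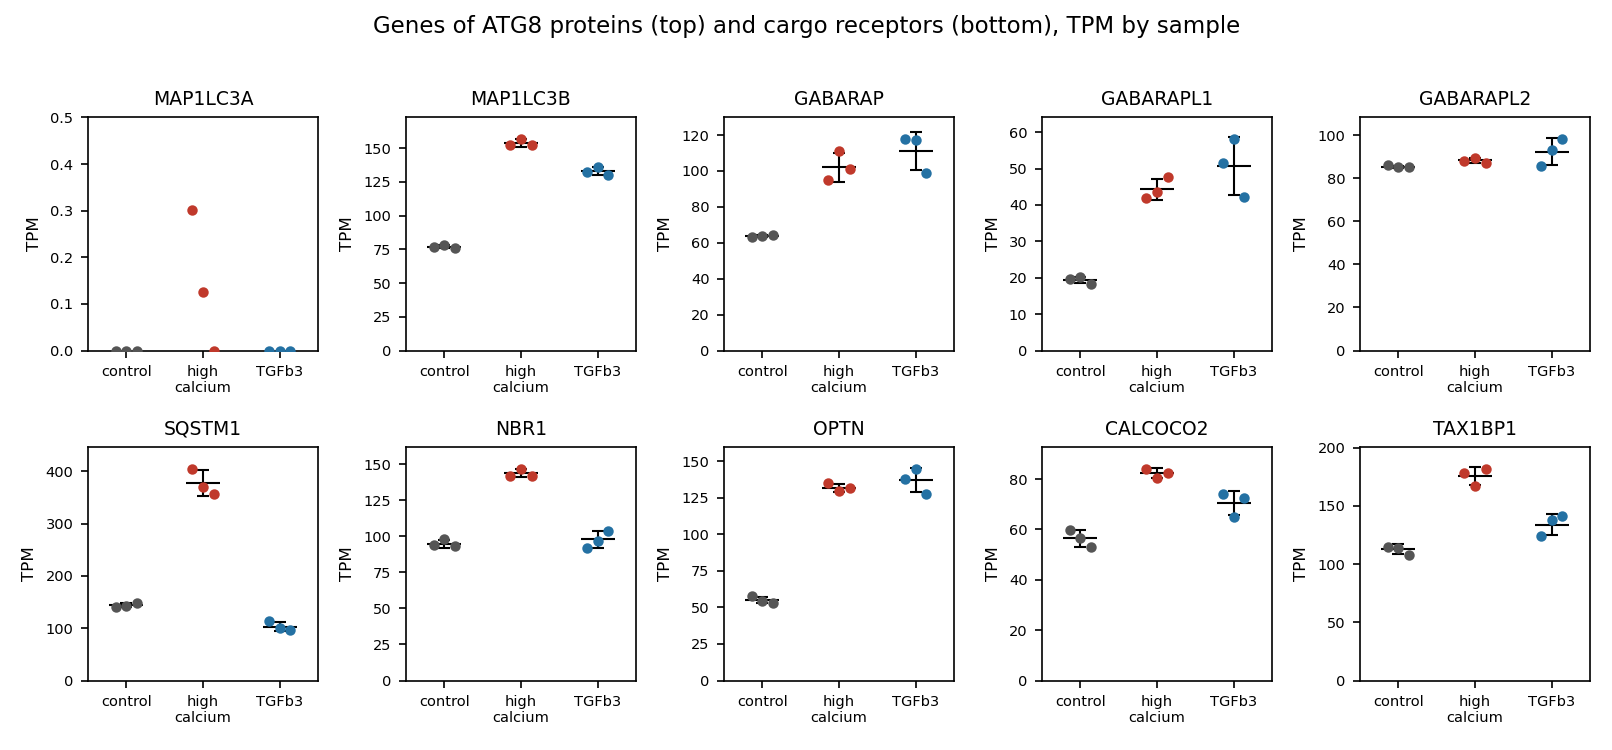
TPM of the 5 ATG8 genes (top) and 5 cargo receptors (bottom) in each sample (points), with the mean and SD of each group of 3 (lines; none for MAP1LC3A, which was listed at 0 in 7 of the 9 samples). MAP1LC3B, GABARAP, GABARAPL1 and OPTN are higher in both treatments, GABARAPL2 stays between 85.1 and 98.4 TPM, and SQSTM1 is above the control in high calcium and below it in TGFb3.

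**Figure D5:**
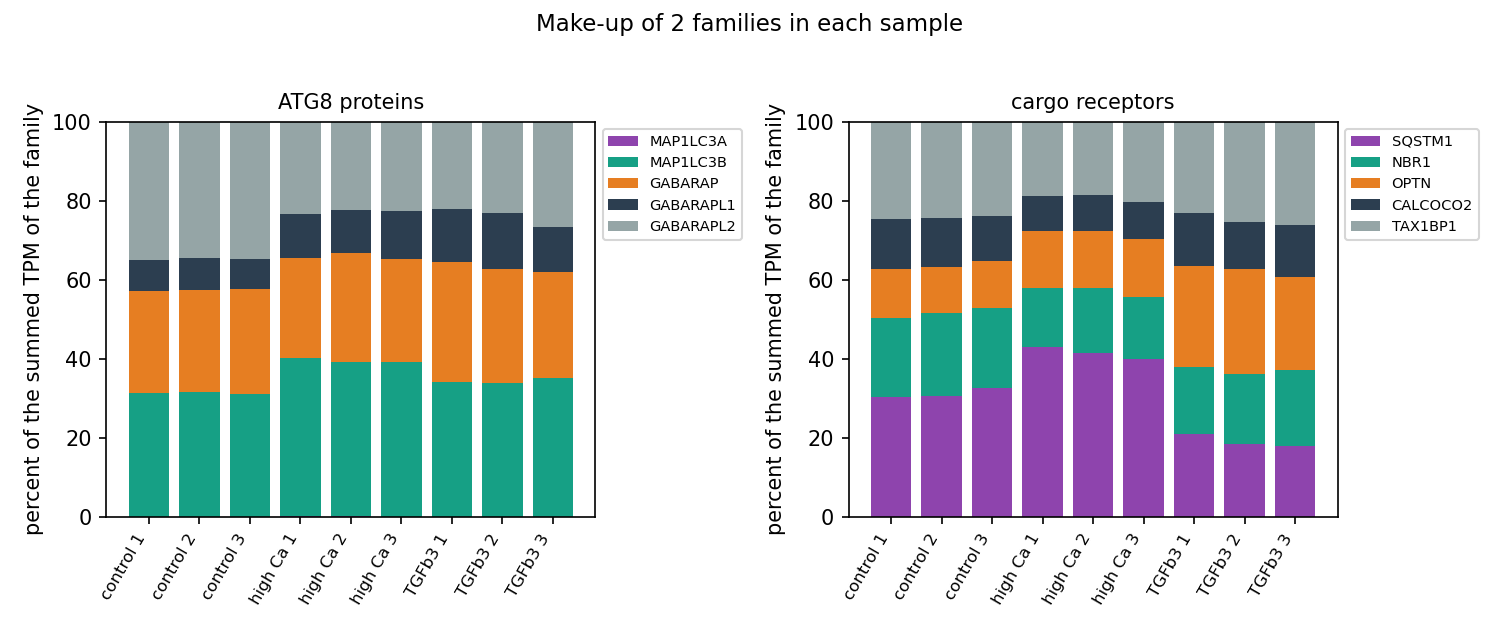
Share of each gene, in percent, in the summed TPM of the ATG8 genes (left) and of the cargo receptors (right) in each of the 9 samples. The share of GABARAPL2 is smaller in both treatments than in the control, and in TGFb3 the share of OPTN is larger than that of SQSTM1.

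The 3 genes of fusion and tethering were called higher in high calcium, and in TGFb3 2 were higher and 1 lower. Of all tested genes, 46.1% were called higher in high calcium, and 26.5% higher and 33.1% lower in TGFb3. STX17, the SNARE protein of the finished autophagosome, was at 24.8, 27.7 and 28.4 TPM in the control, 34.9, 34.8 and 34.5 in high calcium and 21.1, 23.5 and 22.1 in TGFb3. Like SQSTM1 it lay above the control in high calcium (0.35 ± 0.063, adjusted p = 0.0007) and below it in TGFb3 (-0.27 ± 0.063, adjusted p = 0.0041). The rise in high calcium was 0.12 (adjusted p = 0.093) with median ratio rescaling and 0.14 (adjusted p = 0.052) with quantile normalisation. TECPR1, which binds the ATG12 and ATG5 conjugate and lysosomes, was at 1.70, 1.51 and 2.16 TPM, then 3.77, 4.46 and 4.21, then 3.16, 3.01 and 2.20. It rose by 0.89 ± 0.15 in high calcium (adjusted p = 0.00042) and by 0.44 ± 0.15 in TGFb3 (adjusted p = 0.025). The call in TGFb3 was lost without control replicate 1 or 2 or TGFb3 replicate 1 or 2 (adjusted p 0.063 to 0.087). EPG5, a tether of autophagosomes and late endosomes, rose by 0.36 in high calcium (0.05 to 0.18 and not called under the other scalings) and by 0.35 in TGFb3.

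Compared directly, 23 of the 39 genes were higher in high calcium than in TGFb3, 3 were lower and 13 were not called. Of all tested genes 50.4% were higher, 16.2% lower and 66.5% called in either direction, and the median log2 difference was 0.24 for the 39 and 0.27 for all tested genes. The groups did not overlap for 28 genes, against 71.2% of all tested genes. Scaling decided most of these calls: 6, 8 and 7 genes were higher and 12, 9 and 11 lower with median ratio rescaling, mitochondrial genes left out and quantile normalisation (30.0%, 35.5% and 31.2% of all tested genes higher and 30.3%, 24.1% and 29.9% lower).

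The genes called higher in high calcium than in TGFb3 under all 4 scalings were SQSTM1, WIPI1, ATG10, UVRAG, STX17 and NBR1. SQSTM1 differed by log2 1.86 ± 0.065 (adjusted p = 8.1e-09) and WIPI1 by 1.24 ± 0.053 (adjusted p = 3.2e-08). ATG10 differed by 0.78 ± 0.13 (adjusted p = 0.00037), UVRAG by 0.62 ± 0.078 (adjusted p = 5.9e-05), STX17 by 0.62 ± 0.063 (adjusted p = 1.2e-05) and NBR1 by 0.55 ± 0.048 (adjusted p = 4.6e-06). For each of the 6 no sample of the treatments overlapped. ULK1 was the gene with the largest difference in the other direction, -0.83 ± 0.11 (adjusted p = 7.4e-05). ATG5 (-0.17) and ATG12 (-0.19) were also called lower, as they were under the 3 other scalings (-0.46 to -0.37 for ATG5 and -0.47 to -0.39 for ATG12). In TPM as deposited those calls were lost without high calcium replicate 2 for ATG5 (adjusted p = 0.054) and without TGFb3 replicate 2 or 3 or high calcium replicate 1 or 3 for ATG12 (adjusted p 0.053 to 0.083). OPTN (-0.05), GABARAP (-0.12), GABARAPL1 (-0.18), GABARAPL2 (-0.06), PIK3R4 (-0.04) and ATG16L1 (-0.07) were not called between the treatments in TPM as deposited. Each of these 6 was called lower in high calcium than in TGFb3 under all 3 other scalings: the log2 difference was -0.34 to -0.23 for OPTN, -0.41 to -0.32 for GABARAP, -0.46 to -0.37 for GABARAPL1, -0.35 to -0.26 for GABARAPL2, -0.32 to -0.23 for PIK3R4 and -0.35 to -0.26 for ATG16L1. MAP1LC3B was called at 0.21, but was at -0.08, 0.01 and 0.03 under the other scalings.

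Other genes of the pathway were read from 4 further lists, whose counts stand beside 46.1% of all tested genes called higher and 17.0% lower in high calcium (30.2% and 30.0% with median ratio rescaling) and 26.5% higher and 33.1% lower in TGFb3. Of 15 other core autophagy genes 11 were tested, with 6 higher and 1 lower in high calcium and 6 higher and 2 lower in TGFb3. With median ratio rescaling 10 were called in high calcium, 6 of them higher. VMP1 and TMEM41B, ER scramblases that act early in autophagosome formation, rose in both treatments. VMP1 went from 114 ± 2.66 TPM in the control to 204 ± 3.66 in high calcium (0.83 ± 0.042, adjusted p = 1e-07) and 251 ± 11.6 in TGFb3 (1.13 ± 0.042, adjusted p = 1.7e-08). TMEM41B went from 29.5 ± 1.42 to 55.0 ± 2.41 and 46.5 ± 2.38 TPM. WDR45, a relative of WIPI1, rose in high calcium, from 25.2 ± 3.41 to 45.9 ± 5.12 TPM (0.84 ± 0.10), and was at 29.3 ± 1.56 in TGFb3. ZFYVE1 (DFCP1), which marks the site of assembly, rose in TGFb3 from 6.72 ± 0.787 to 12.4 ± 0.307 TPM (0.80 ± 0.090). TBK1, the kinase of cargo receptors, fell in high calcium by 0.20 ± 0.062 (adjusted p = 0.018), a call that was lost without control replicate 1 or 2 or high calcium replicate 1 or 2 (adjusted p 0.052 to 0.067).

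Of 21 receptors of mitochondria, ER, glycogen and ferritin, 20 were tested. In high calcium 19 were called higher and 1 lower, where 46.1% and 17.0% of all tested genes were. With median ratio rescaling 12 were called, 11 of them higher. In TGFb3 10 were higher, 4 lower and 6 not called. PINK1, the kinase that marks damaged mitochondria, was at 40.7 ± 1.84 TPM in the control, 122 ± 2.20 in high calcium (1.56 ± 0.052, adjusted p = 7.3e-09) and 94.9 ± 5.68 in TGFb3 (1.20 ± 0.052, adjusted p = 4.8e-08). CCPG1, an ER-phagy receptor, was at 15.1 ± 2.78, 46.1 ± 3.59 and 33.1 ± 4.67 TPM. PHB2, a receptor in the inner mitochondrial membrane, fell in both treatments, from 266 ± 6.78 to 219 ± 6.47 and 147 ± 6.88 TPM. The ER-phagy receptor TEX264 fell in TGFb3, from 15.5 ± 2.48 to 8.04 ± 0.805 TPM, and was at 23.7 ± 2.72 in high calcium, a difference between the treatments of 1.44 ± 0.12 (adjusted p = 3.7e-06). RETREG1 (FAM134B), of the same function, differed by 1.05 ± 0.072, at 33.2 ± 2.70 TPM in high calcium and 15.5 ± 0.879 in TGFb3.

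Of 11 fusion genes 5 were higher and 1 lower in high calcium (7 called, 4 of them higher, with median ratio rescaling), and 5 were higher and 0 lower in TGFb3. Among all tested genes 46.1% were higher and 17.0% lower in high calcium (30.2% and 30.0% with median ratio rescaling). In TGFb3 these shares were 26.5% and 33.1%. PLEKHM1, an adaptor between RAB7 and the HOPS tether, rose in both, from 3.74 ± 0.609 TPM to 8.76 ± 1.02 (1.05 ± 0.12) and 7.18 ± 0.328 (0.80 ± 0.12). Of the HOPS subunits, VPS39 went from 23.7 ± 1.04 TPM to 36.1 ± 1.60 in high calcium and 29.8 ± 1.40 in TGFb3. SNAP29, the SNARE partner of STX17, fell in high calcium by 0.18 ± 0.070 (adjusted p = 0.046), a call that was lost without TGFb3 replicate 1 or 3, control replicate 1 or 2 or high calcium replicate 1 or 2 (adjusted p 0.052 to 0.17), with no filter (adjusted p = 0.067) and with the compared groups alone (adjusted p = 0.052). It was lower in high calcium than in TGFb3 (-0.31 ± 0.070, adjusted p = 0.0032), where STX17 had the opposite direction.

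The list of mTORC1 and AMPK control, which holds activators and inhibitors, had 13 of 20 higher and 0 lower in high calcium and 7 higher and 10 lower in TGFb3, against 46.1% and 17.0%, and 26.5% and 33.1%, of all tested genes. The 7 became 4 without TGFb3 replicate 1 or without control replicate 1. With median ratio rescaling 13 were also called in high calcium, but 8 of them higher. TRIB3, a pseudokinase that binds AKT, went from 70.5 ± 2.39 TPM in the control to 245 ± 3.61 in high calcium (1.78 ± 0.041, adjusted p = 5.6e-10) and was at 82.4 ± 2.77 in TGFb3. SESN2, a leucine sensor of mTORC1, was at 10.0 ± 0.914, 28.9 ± 0.972 and 11.9 ± 0.594 TPM, a difference between the treatments of 1.22 ± 0.076 (adjusted p = 4e-07). DDIT4 (REDD1), which acts through TSC2, was at 503 ± 18.7, 655 ± 6.03 and 240.2 ± 13.4 TPM and fell in TGFb3 by 1.06 ± 0.046 (adjusted p = 4.6e-08). SESN1 fell in TGFb3 by 1.07 ± 0.099 and the AMPK subunit gene PRKAG2 by 0.69 ± 0.075, while PRKAB2, another AMPK subunit gene, rose in both treatments (0.99 ± 0.043 and 0.65 ± 0.043).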

How the data were processed

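The authors deposited 1 table of TPM values for 58288 annotated genes in 9 samples, 3 in each of 3 groups. The submitters' processing notes name HISAT2 and the genome build hg38. The sources used here do not name the counting program, the annotation release or the strandedness. Each TPM column sums to 1000000, which leaves the depth unknown and allows no counting interval. Because that total is fixed, abundant RNAs move the values of all other genes.

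The 1932 entries that share 253 symbols were summed, which left 56609 symbols. Values were tested as log2(TPM + 1), with a pseudocount of 1, a scale that understates changes of low genes. The 13968 symbols whose mean reached 1 TPM entered a limma fit (version 3.58.1, R 4.3.3) of all 9 samples, using a trended empirical Bayes variance and 6 residual degrees of freedom. Tests were two-sided, with Benjamini-Hochberg adjustment over all tested symbols within a comparison and calls under 0.05. Intervals after ± are standard errors for log2 differences and SD for TPM and shares (n = 3). Alternatives were pseudocount 0.1, other filters (none, or a mean of 5 TPM), 3 other scalings, a fit of the compared groups alone, a replicate block and leaving out each sample. On simulated data 200 genes were changed in the treated group. In high calcium 67% of 1.5-fold and 90.5% of 2-fold changes were called in the right direction, and in TGFb3 70% and 84%. For 1.25-fold changes these were 20% in high calcium, with 11.1% of calls on unchanged genes, and 18.5% in TGFb3, with 7.5%. The simulation changed 200 of 13968 genes, whereas 63.1% of tested genes were called in high calcium. Its rates therefore do not carry over to these data.

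The members and gene lists were chosen with earlier results of these data known. All members are accounted for. Values in every sample are given for ATG8 genes, cargo receptors and members called with a log2 difference of at least 0.5 against the control. PIK3R4 and STX17 were added to these after their values were seen. Other pathway genes are among the 3 largest called rises and falls of a list in a comparison, with at least 5 TPM in the higher group. Positions and overlaps come from GENCODE release 29, matched by identifier for all 40 members, of which 22 share exon bases with another gene. Not all of these overlaps are given above. ATG4D shares 341 of 2278 exon bases with KRI1 on the opposite strand (13.8 to 28.5 TPM). RUBCN shares 118 with FYTTD1 on the opposite strand (36.2 to 54.2 TPM), and ATG9A 1833 of 4724 with AC068946.2 on the same strand.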

Additional observations from a re-analysis of the deposited data

How the results depend on the processing

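The scaling of the samples moved the counts most. Against the control, genes called higher in high calcium went from 29 to 19 with median ratio rescaling and 17 with quantile normalisation, and genes called lower from 3 to 8, 7 (mitochondrial genes left out) and 7 (quantile normalisation). Between the treatments, genes higher in high calcium went from 23 to 6, 8 and 7, and lower from 3 to 12, 9 and 11, with median ratio rescaling, mitochondrial genes left out and quantile normalisation. In the same order, 12, 13 and 13 of 20 organelle receptors were called in high calcium in place of 20. The signs that turned under a scaling are listed next, first with median ratio rescaling. In high calcium against the control the log2 differences were -0.04 for PIK3C3, -0.16 for ATG5, -0.02 for ATG7, -0.22 for ATG16L1 and -0.19 for GABARAPL2. In high calcium against TGFb3, among genes called there, they were -0.06 for BECN1, -0.04 for PIK3C3, -0.01 for ATG3, -0.08 for MAP1LC3B and -0.06 for CALCOCO2. Among genes not called there, they were -0.14 for ULK2, -0.02 for RUBCN, -0.17 for ATG9A, -0.18 for ATG4A, -0.08 for ATG4B and -0.26 for EPG5. With quantile normalisation the values against the control were -0.03 for PIK3C3, -0.01 for AMBRA1, -0.11 for ATG5, -0.04 for ATG7, -0.21 for ATG16L1 and -0.13 for GABARAPL2, and against TGFb3 they were -0.01 for BECN1, -0.01 for PIK3C3, -0.14 for ULK2, -0.06 for RUBCN, -0.14 for ATG9A, -0.16 for ATG4A, -0.06 for ATG4B and -0.28 for EPG5. With mitochondrial genes left out they were -0.12 for ATG5, -0.18 for ATG16L1 and -0.15 for GABARAPL2 against the control, and -0.05 for ULK2, -0.08 for ATG9A, -0.10 for ATG4A and -0.18 for EPG5 against TGFb3. The same scalings moved the median of all tested genes in high calcium against the control from 0.22 to between -0.04 and 0.05.

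Leaving out each sample in turn gave 25 to 29 genes higher and 3 to 3 lower in high calcium, 14 to 17 higher and 6 to 6 lower in TGFb3, and 19 to 23 higher and 2 to 4 lower between the treatments. Values that were not called and turned their sign ranged from -0.03 to 0.02 for ATG2B and -0.01 to 0.04 for ATG16L1 in high calcium. In TGFb3 they ranged from -0.01 to 0.10 for RB1CC1, -0.14 to 0.03 for AMBRA1, -0.03 to 0.12 for ATG4B and -0.01 to 0.21 for ATG10. Without the scalings, 511 of 544 recomputed values in high calcium and 525 of 544 in TGFb3 kept their direction and their side of the threshold.

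The labels number the replicates but do not say what a number marks. Same-numbered samples of different groups did not deviate together (correlations of -0.075 to -0.004 over 9 pairs), so the numbers were not taken as pairs. With a replicate block, 28 genes were higher and 3 lower in high calcium, 15 and 6 in TGFb3, and 23 and 3 between the treatments.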

Other observations

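The 5 genes whose log2(TPM + 1) followed WIPI1 most closely over the 9 samples, among 8710 tested genes with a mean of at least 10 TPM, were ARF4 (Pearson r = 0.99965), SEC24D (0.99953), CALU (0.99922), COPB1 (0.99861) and SCARB2 (0.99836). The 9 samples fall into 3 groups, so these values describe the order and spacing of the groups and carry no test. ARF4, SEC24D and COPB1 encode proteins of vesicle traffic between ER and Golgi, CALU encodes a calcium-binding protein of the ER lumen, and SCARB2 encodes a lysosomal membrane protein. SEC24D, a cargo adaptor of COPII vesicles, was at 12.1 ± 0.189 TPM in the control, 94.0 ± 1.64 in high calcium and 36.3 ± 2.57 in TGFb3 (SD, n = 3).

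Relatives of the ATG8 genes under the 1 TPM mean were not tested. MAP1LC3B2, a near copy of MAP1LC3B, was at 0 to 0.691 TPM and GABARAPL3 was listed at 0 in all samples.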
